A study of Mus musculus with 6 samples.

Results

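Chemokines and their receptors were followed in the kidneys of mice with hyperuricemia-related chronic kidney disease. Members were set by a rule on names, chosen with earlier results of these data known. They are every protein-coding gene whose GENCODE M21 symbol is Ccl, Cxcl, Ccr or Cxcr with a number. Cx3cl1, Cx3cr1, Xcl1, Xcr1 and Ackr1 to Ackr4 are members as well. This gave 60 genes out of 55450 in the count table, of which 37 encode ligands and 23 encode receptors. Pf4, Ppbp and Ccrl2 belong to the wider family but carry other symbols, and Cxcl11, Ccl19-ps1 and Ccl19-ps3 are annotated as pseudogenes, so none of them is a member.

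Whole-kidney mRNA was sequenced from 3 mice of the day-0 group, the controls, and from 3 mice of the day-21 group. All were wild-type male C57BL/6J mice, bought at 7 weeks of age and kept for 1 week before the start. The day-21 mice received 2 agents for 21 days, adenine at a dose of 0.16 g/kg together with potassium oxonate, dosed at 2.4 g/kg, by gavage in the study's methods and as feeding in the sample labels. The controls are labelled with 20% PEG, a vehicle, and as they are taken as day 0, the agents, the vehicle, handling and 21 days of age cannot be told apart. The design had 6 mice per group, of which 3 per group are analysed here, and every p-value measures the spread between these mice.

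Chemokines are small secreted proteins that steer the movement of leukocytes along gradients. They are named after the spacing of their conserved cysteines (CC, CXC, CX3C and XC) and act on receptors coupled to inhibitory G proteins, which carry the matching name. The atypical receptors (Ackr) bind chemokines without classical G protein signalling and scavenge or transport them. Some chemokines are made in resting tissue and hold cells in place, while others appear on demand after stimulation by tumour necrosis factor, interleukins, interferons or injury. In the diseased kidney, tubular cells, endothelium and infiltrating leukocytes are all known to make them.

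The promoters of the members that appear on demand are known for binding sites of NF-kB, the transcription factor that tumour necrosis factor activates, and of interferon-driven factors. The 250 bases before the RefSeq start are given for 4 ligands that were higher on day 21 and for Cxcl12, a ligand made in resting tissue that was lower. They lie, on GRCm38.p6, at chr5:90890995-90891244 on the plus strand for Cxcl1, chr5:90903649-90903898 on the plus strand for Cxcl2, chr5:92348890-92349139 on the minus strand for Cxcl10, chr1:83116516-83116765 on the plus strand for Ccl20 and chr6:117168285-117168534 on the plus strand for Cxcl12. Each is written from 5′ to 3′ along its gene, and capitals mark matches to the NF-kB consensus and, in Cxcl10, also the match nearest the 5′ end to the interferon-stimulated response element.
Cxcl1: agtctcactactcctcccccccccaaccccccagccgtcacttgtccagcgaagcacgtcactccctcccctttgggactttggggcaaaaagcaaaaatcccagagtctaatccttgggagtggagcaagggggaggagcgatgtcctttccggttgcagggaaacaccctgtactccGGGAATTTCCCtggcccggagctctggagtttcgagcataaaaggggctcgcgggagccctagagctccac
Cxcl2: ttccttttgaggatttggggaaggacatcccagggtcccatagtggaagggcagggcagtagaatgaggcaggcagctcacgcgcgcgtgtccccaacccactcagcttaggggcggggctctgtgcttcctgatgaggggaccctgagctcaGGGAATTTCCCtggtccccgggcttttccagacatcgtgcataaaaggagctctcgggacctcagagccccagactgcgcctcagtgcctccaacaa
Cxcl10: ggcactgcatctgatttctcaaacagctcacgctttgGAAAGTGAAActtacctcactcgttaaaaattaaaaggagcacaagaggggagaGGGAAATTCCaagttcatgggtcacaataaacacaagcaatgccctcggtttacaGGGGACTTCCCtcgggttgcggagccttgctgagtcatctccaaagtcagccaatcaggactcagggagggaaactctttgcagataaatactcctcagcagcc
Ccl20: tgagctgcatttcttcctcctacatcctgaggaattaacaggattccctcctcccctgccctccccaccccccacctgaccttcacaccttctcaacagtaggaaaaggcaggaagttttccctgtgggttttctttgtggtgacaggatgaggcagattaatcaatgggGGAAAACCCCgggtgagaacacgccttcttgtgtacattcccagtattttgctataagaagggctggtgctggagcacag
Cxcl12: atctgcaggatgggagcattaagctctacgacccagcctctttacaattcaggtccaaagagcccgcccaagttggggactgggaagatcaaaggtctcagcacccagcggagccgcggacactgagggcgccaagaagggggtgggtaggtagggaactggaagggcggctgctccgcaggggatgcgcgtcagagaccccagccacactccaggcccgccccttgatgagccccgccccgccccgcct

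Cxcl1 and Cxcl2 shared the same 11 letters, which hold 2 overlapping matches on opposite strands, beginning at positions -71 and -70 in Cxcl1 and at -97 and -96 in Cxcl2, counted from the start of transcription. In Cxcl10 the NF-kB matches began at -159, -104 and -103, and the interferon-stimulated response element at -213. Ccl20 had 1 match, at -80. The Cxcl12 window had none, which says only that these letters are not in this window. The RefSeq table held a window of 300 bases (250 before and 50 after the start) for 46 of the 60 members and for 27025 genes in all. The NF-kB consensus searched, on either strand, was GGG, a purine, any 2 bases, 2 pyrimidines and CC. It was found in 12 of the 46 members (26.1%) and in 9.55% of all genes in the table. Of the members with a window, 6 of 19 called higher (31.6%) and 6 of the 27 others (22.2%) held it, so the 4 risers printed were picked for it and are not typical. AP-1 letters, TGANTCA, were found in 19.6% of the members with a window and in 8.97% of all genes. The interferon-stimulated response element, searched as TTTC, any 2 bases and TTTC, was in 6.52% of the members and 3.99% of all genes, and the gamma-activated site TTCNNNGAA in 8.7% and 9.55%. No test was run on these shares, and related genes of 1 cluster have related promoters. A window was missing for 14 members, among them Ccl2, Ccl4, Ccl5, Ccl7, Ccl11, Ccl24, Ccl26, Cxcl5, Cxcl16, Cxcl17, Ccr7, Ccr10 and Cxcr5.

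The 6 libraries held 10963849 to 14333311 counts, and 3 counts in a single library stood for 0.179 to 0.309 CPM (counts per 1000000, scaled by TMM). A gene was called when the adjusted p of edgeR's quasi-likelihood test was under 0.05 and the fold over 1.5. Of 16592 genes tested, 35.1% were called, 19.6% as higher and 15.5% as lower on day 21. The 5 proximal tubule markers, for the cells that make up most of the kidney cortex, were present in every mouse and all lower on day 21, with a summed level of 8846 to 9861 CPM on day 0 and 1682 to 2068 CPM on day 21. All 3 pan-leukocyte markers were higher, from 34.1 to 44.8 CPM in sum to 209 to 230 CPM. In whole tissue, more or fewer cells of a type and more or less RNA per cell cannot be told apart, and the part of these markers in the chemokine results was not tested.

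On day 21, more members were called higher than lower. Of the 60 members, 56 had at least 1 count and 38 passed the filter on low counts. Of these 38, 28 were called higher, 3 were called lower (Ccl28, Cxcl12 and Ackr4) and 7 were not called. The share called higher was 73.7%, beside 19.6% of all genes tested. The median log2 fold change of the members tested was 2.61, beside 0.03 for all genes tested. In 33 of the 38 the 3 mice of day 21 did not overlap with the 3 of day 0, as was so for 57.1% of all genes tested. A member that passed the filter only through its level on day 21 had to differ, so these counts describe the members and were not tested as a set. Ligands made up 25 of the 38, with 21 higher and 2 lower, and receptors 13, with 7 higher and 1 lower.

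**Figure D1:**
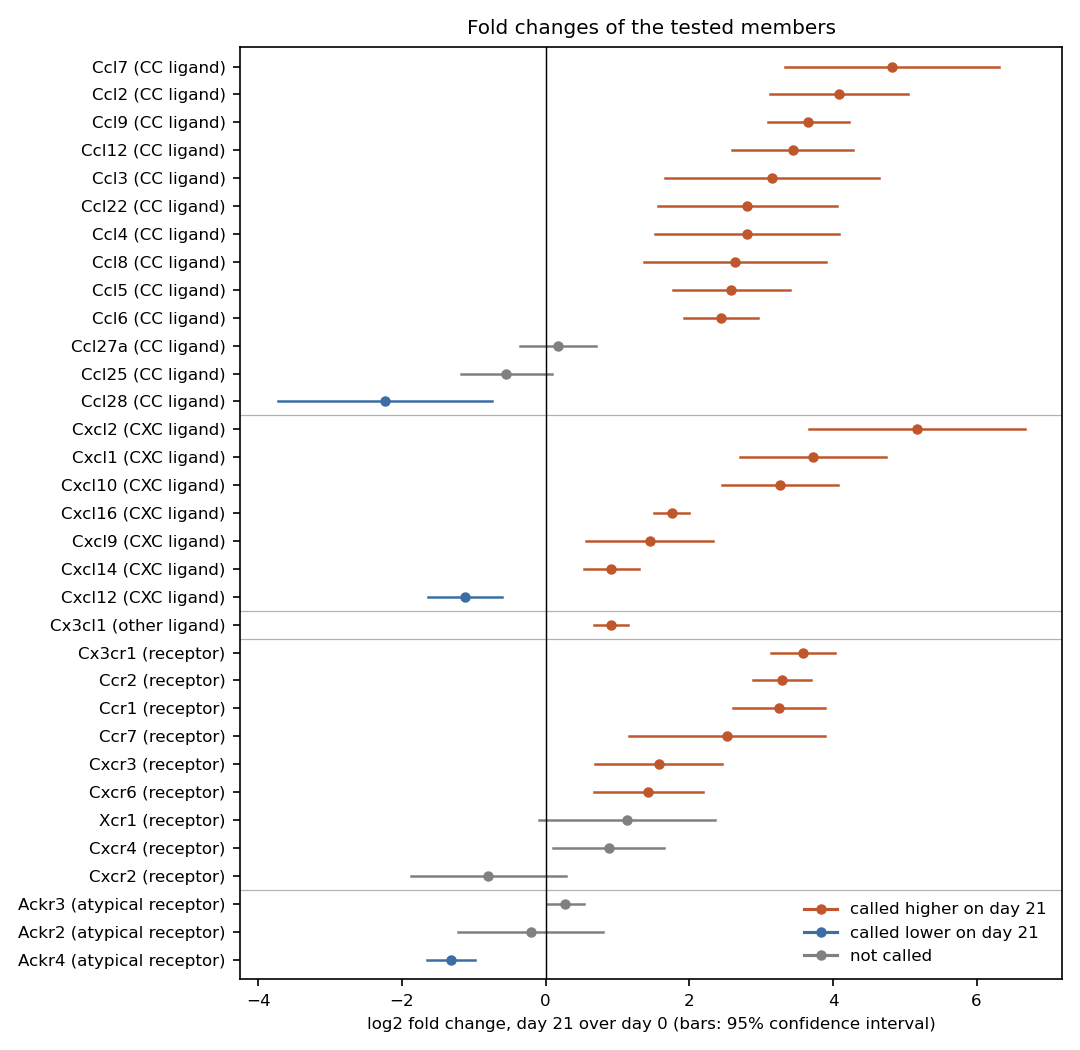
Log2 fold change of day 21 over day 0 (horizontal axis) for 33 of the 38 tested members, grouped by class, with bars for the 95% confidence interval. Ccl17, Ccl20, Cxcl5 and Cxcl17 are left out because their day-0 mice held 0 or 1 to 3 counts in sum, and 1 further member is not reported here; Ccl28, Cxcl12 and Ackr4 are the members called lower.

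The CC ligands that attract monocytes rose together. Ccl2, the main attractant of monocytes through Ccr2, was counted 15, 4 and 7 times on day 0 and 174, 328 and 173 times on day 21. Every day-21 mouse was above every day-0 mouse, and the log2 fold change was 4.08 (SE 0.43, adjusted p = 3.94e-05), or 4.76 without day-0 mouse 1, the highest of its group. Ccl7, a further Ccr2 ligand, was at 0, 0.495 and 0 CPM on day 0 and at 6.36, 5.96 and 4.23 CPM on day 21. Its log2 fold change was 4.82 (SE 0.67, adjusted p = 0.000243), and it rested on 6 counts on day 0, all in mouse 2, without which no day-0 count is left (fitted value 9.21). Ccl12, also a Ccr2 ligand, went from 0.301, 0.412 and 0.825 CPM to 6.08, 5.01 and 5.63 CPM. The rise of Ccl12 was 3.44 on the log2 scale (SE 0.38, adjusted p = 5.3e-05).

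Ligands of Ccr1, a receptor of monocytes and macrophages, rose as well. Ccl6 was at 3.41, 4.78 and 4.43 CPM on day 0 and at 16.7, 27.7 and 24.4 CPM on day 21 (log2 fold change 2.44, SE 0.23, adjusted p = 2.14e-05). Ccl9 went from 1.80, 1.48 and 1.85 CPM to 17.6, 28.0 and 19.2 CPM (log2 fold change 3.66, SE 0.25, adjusted p = 3.4e-06). Both are mouse CC ligands of Ccr1, and in both the day-0 mice lay close together, well below the day-21 mice. Ccl5, which T cells and other leukocytes release, was at 1.80, 3.54 and 0.825 CPM on day 0 and at 12.1, 12.9 and 13.1 CPM on day 21. The day-21 mice lay close together while the day-0 mice spread over several fold, and the log2 fold change was 2.58 (SE 0.37, adjusted p = 0.000275), or 3.26 without day-0 mouse 2. Ccl3 and Ccl4, inflammatory ligands that macrophages release, were low, with 5 and 8 counts summed over the day-0 mice and 69 and 85 over the day-21 mice. They were called higher by 3.16 and 2.80 on the log2 scale (adjusted p = 0.00335 and 0.00275).

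Ligands of other CC receptors appeared from near the detection limit. Ccl20, which attracts Ccr6-bearing lymphocytes, had no count in any day-0 mouse and 54, 46 and 31 counts in the day-21 mice. Against a floor of 3 counts over the day-0 group it was at least 29.4-fold higher (adjusted p = 0.000223). Ccl17, a ligand of Ccr4 made by dendritic cells and macrophages, had 1 count on day 0, in mouse 1, and 12, 31 and 15 counts on day 21. Its ratio was 39.1 with a 95% counting interval of 6.74 to 1569, and it was called higher (adjusted p = 0.00147). Ccl22, which shares Ccr4, was called higher by 2.81 (adjusted p = 0.00233) with 10 counts on day 0 against 107 on day 21. Ccl8 rose by 2.63 (adjusted p = 0.00373), from 18 counts to 168. All 4 were seen in each day-21 mouse, and Ccl17, Ccl22 and Ccl8 were highest in mouse 2. Intervals and floors of this kind cover counting error only.

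None of the other 3 CC ligands tested was called higher. Ccl28, a mucosal ligand of Ccr10 and Ccr3, was at 13.2, 17.7 and 112 CPM on day 0 and at 10.1, 9.72 and 10.2 CPM on day 21. It was called lower by 2.24 on the log2 scale (SE 0.67, adjusted p = 0.0199), and day-0 mouse 3 alone held 1084 counts against 132 and 215 in the others. Without that mouse the fall was 0.65 (adjusted p = 0.0184), and without any single day-21 mouse the adjusted p was 0.0538 to 0.0583. Every day-0 mouse remained above every day-21 mouse, so the direction did not rest on mouse 3 while the size did. Ccl25, a thymic and intestinal ligand of Ccr9, had 59, 52 and 54 counts on day 0 against 67, 46 and 54 on day 21 (log2 fold change -0.55, SE 0.28, adjusted p = 0.143). Ccl27a, a skin ligand of Ccr10, had 48, 47 and 55 counts on day 0 against 69, 93 and 92 on day 21 (log2 fold change 0.17, SE 0.24, adjusted p = 0.597). Neither passed the test, and 69.2% of the 50-base words of Ccl27a also occur in other genes, so its count is uncertain.

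The 8 remaining CC ligands were too low to test. Ccl11, the eosinophil attractant, had 11 counts summed over the day-0 mice against 28 over the day-21 mice. Ccl19, which guides cells to lymph nodes through Ccr7, had 8 and 22 counts, nearly all from a single mouse of each group. Ccl1 had 1 and 4, Ccl24 had 1 and 6, and Ccl21a had 0 and 5. Ccl21b, Ccl26 and Ccl27b had no count in any mouse. Ccl19, Ccl21a, Ccl21b and Ccl27b share 59.1% to 100% of their 50-base words with near-identical copies, so reads of these could be split or lost. Nothing about a change in these genes was detectable at this depth.

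Among the CXC ligands that attract neutrophils through Cxcr2, the 3 members tested, Cxcl5, Cxcl1 and Cxcl2, rose, while Ppbp, a platelet ligand of Cxcr2 outside the symbol rule, was not called (log2 fold change 0.27, adjusted p = 0.714). Cxcl5 had no count in any day-0 mouse and 119, 215 and 154 counts in the day-21 mice, which gives at least a 110-fold rise (adjusted p = 1.07e-05). Cxcl1 was at 4.61, 0.659 and 1.24 CPM on day 0 and at 23.8, 32.1 and 28.2 CPM on day 21 (log2 fold change 3.73, SE 0.46, adjusted p = 0.000106). Cxcl2 had 5 counts on day 0, all in mouse 1, and was at 7.14, 5.91 and 5.02 CPM on day 21 (log2 fold change 5.17, SE 0.68, adjusted p = 0.000161). Day-0 mouse 1 was the highest of its group for both Cxcl1 and Cxcl2. Without it their log2 fold changes were 4.89 and 9.37, the latter against a day-0 group with no count left. Cxcl3, of the same subfamily, had 1 count on day 0 and 15, 20 and 10 on day 21, a ratio of 30.3 (counting interval 5.17 to 1223), and was too low to test.

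Cxcl17, a mucosal chemokine, had 2 counts on day 0 against 137, 309 and 170 counts on day 21. The ratio was 207 with a counting interval of 57.2 to 1716, and it was called higher (adjusted p = 9.97e-06). Every day-21 mouse was far above the day-0 mice. Cxcl10 and Cxcl9 are induced by interferons and attract Cxcr3-bearing T cells. Cxcl10 was at 6.32, 2.80 and 3.81 CPM on day 0 and at 62.5, 33.1 and 27.6 CPM on day 21, with the highest value in day-21 mouse 1 (log2 fold change 3.26, SE 0.36, adjusted p = 5.62e-05). Cxcl9 was at 1.40, 3.54 and 4.95 CPM on day 0 and at 7.42, 12.7 and 6.92 CPM on day 21 (log2 fold change 1.45, SE 0.40, adjusted p = 0.0132). The groups did not overlap in either gene, but the Cxcl9 call was lost without day-21 mouse 2 (1.12, adjusted p = 0.0626).

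Cxcl16 and Cx3cl1, which are made as membrane-bound forms and shed, were already abundant on day 0 and rose further. Cxcl16, a ligand of Cxcr6, was at 52.8, 58.8 and 59.0 CPM on day 0 and at 185, 206 and 184 CPM on day 21, a rise of 1.75 on the log2 scale (SE 0.11, adjusted p = 2.2e-06). Cx3cl1, or fractalkine, was at 104, 98.3 and 101 CPM on day 0 and at 205, 171 and 193 CPM on day 21, a rise of 0.91 (SE 0.11, adjusted p = 8.95e-05). The mice of each group lay within a narrow range in both genes. Of the exon bases of Cxcl16, 18.3% also lie in exons of Zmynd15 on the opposite strand, which changed by 1.64 (SE 0.11). As the strand setting of the counting is not known here, reads of this overlap cannot be told apart. The same holds for 5.91% of Cxcl10 with Art3 (log2 fold change 1.18).

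Cxcl14 and Cxcl12, both present in resting tissue, went in opposite directions. Cxcl14, an epithelial chemokine, was at 41.6, 25.9 and 32.5 CPM on day 0 and at 69.7, 54.6 and 63.9 CPM on day 21, and rose by 0.91 on the log2 scale (SE 0.17, adjusted p = 0.00161). Cxcl12, which retains progenitor cells and lymphocytes through Cxcr4, was at 123, 125 and 193 CPM on day 0 and at 77.4, 45.8 and 79.1 CPM on day 21. It fell by 1.12 (SE 0.23, adjusted p = 0.0028), and every day-21 mouse was below every day-0 mouse. The summed level of 4 endothelial markers, cells known to make Cxcl12, was 258 to 306 CPM on day 0 and 155 to 261 CPM on day 21, with 0 of 4 called, and that of 4 fibroblast markers was 124 to 185 and 467 to 740 CPM, with 4 of 4 higher. Among the day-21 mice, mouse 2 was lowest for Cxcl12 and for both marker sums. Of its fibroblast sum of 467 CPM, 279 CPM came from Col1a1, a collagen gene. Its Col1a1 and Pdgfrb were above every day-0 mouse. Its Pdgfra (46.35 CPM) and Dcn (46.65 CPM) were not, with day-0 mouse 3 at 64.1 and 52.77 CPM. The part of these cells in the fall of Cxcl12 was not tested. Cxcl13, the B cell attractant, and Cxcl15 were not tested, Cxcl13 with 6 counts on day 0 against 15 on day 21 and Cxcl15 with 0 against 2. Xcl1, the single XC ligand, had 0, 3 and 3 counts on day 0 against 8, 8 and 7 on day 21, and was not tested either.

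**Figure D2:**
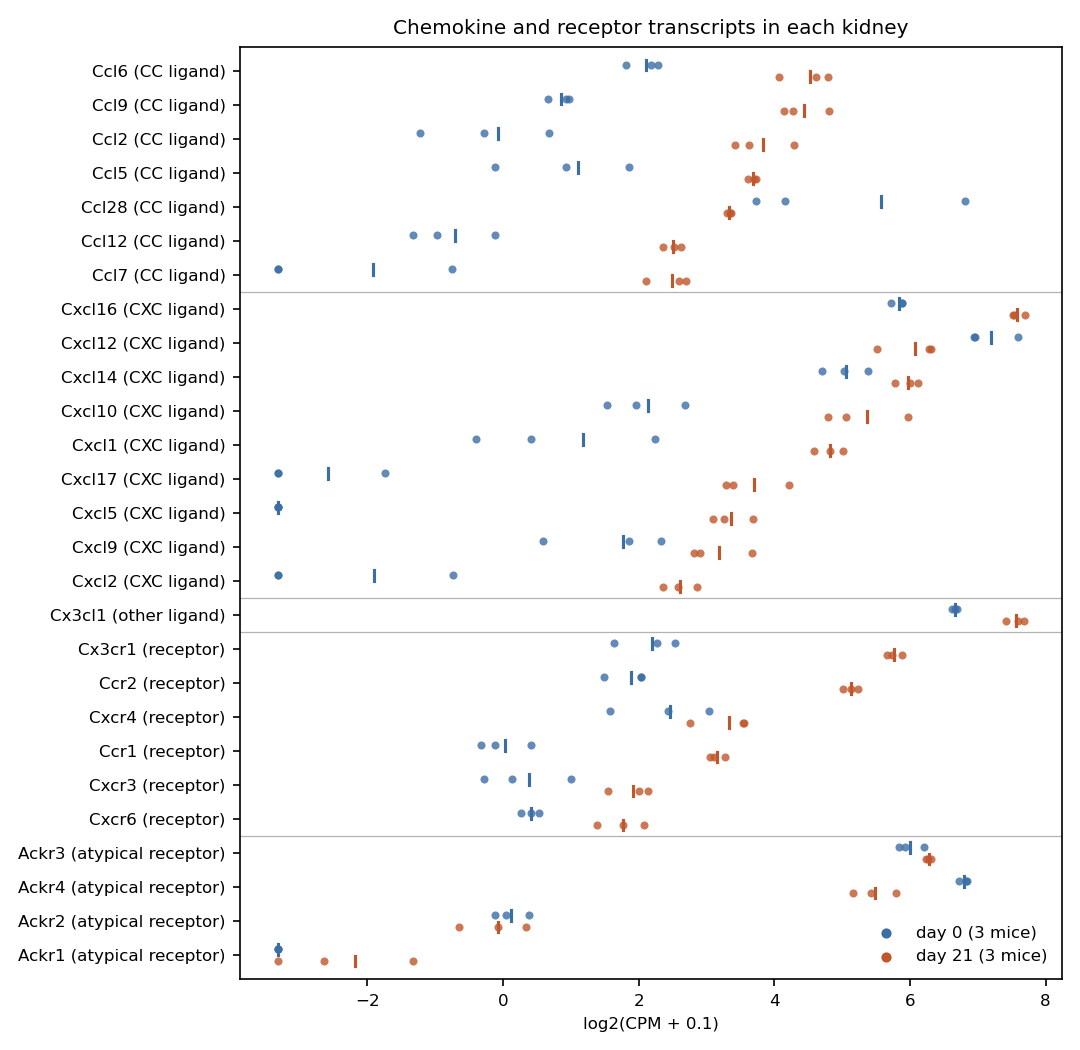
Level of 27 members in each mouse, as log2(CPM + 0.1) on the horizontal axis, with 1 point per mouse and a vertical bar at the group mean. Day-21 points lie to the right of all day-0 points in most ligands and receptors, and to the left in Ccl28, Cxcl12 and Ackr4; a day-0 point of Ccl28 stands far from the other two.

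Receptors of monocytes and macrophages rose strongly and evenly. Ccr2, carried by inflammatory monocytes, was at 4.01, 2.72 and 4.02 CPM on day 0 and at 37.4, 35.0 and 32.3 CPM on day 21, a rise of 3.29 on the log2 scale (SE 0.18, adjusted p = 1.25e-06). Cx3cr1, the fractalkine receptor of resident macrophages and patrolling monocytes, went from 3.01, 5.69 and 4.74 CPM to 59.0, 52.9 and 50.6 CPM, a rise of 3.58 (SE 0.20, adjusted p = 1.34e-06). In each of these the lowest day-21 mouse was several-fold above the highest day-0 mouse. Ccr1 rose by 3.25 (SE 0.29, adjusted p = 1.38e-05), from 0.702, 0.824 and 1.24 CPM to 8.55, 8.23 and 9.62 CPM. The 7 macrophage markers were all called higher, with a sum of 121 to 151 CPM on day 0 and 581 to 700 CPM on day 21. Single markers rose from 1.78-fold (Csf1r) to 19.1-fold (Itgam), with a median log2 fold change of 2.97. Itgam, with 16 counts summed over the day-0 mice, stood apart, and the next marker was C1qa at 9.545-fold. The folds of 9.80 for Ccr2 and 12.0 for Cx3cr1 were above every marker but Itgam. That of Ccr1, 9.53, was close to C1qa. Differences between these folds were not tested, nor was the part of macrophage number in them.

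Receptors of T cells also rose. Cxcr3 was at 1.00, 1.90 and 0.721 CPM on day 0 and at 4.31, 3.94 and 2.82 CPM on day 21 (log2 fold change 1.57, SE 0.40, adjusted p = 0.00871). Cxcr6 was at 1.10, 1.24 and 1.34 CPM on day 0 and at 3.32, 4.12 and 2.51 CPM on day 21 (log2 fold change 1.43, SE 0.34, adjusted p = 0.00657). The groups did not overlap in either. Ccr7, which takes T cells and mature dendritic cells to lymph nodes, had 6, 6 and 5 counts on day 0 against 17, 96 and 39 on day 21 (log2 fold change 2.53, SE 0.61, adjusted p = 0.007). Day-21 mouse 2 held most of the Ccr7 counts, and without it the log2 fold change was 1.74 (adjusted p = 0.029). All 6 T cell markers were called higher, with a sum of 3.81 to 9.64 CPM on day 0 and 24.5 to 27.4 CPM on day 21. The part of T cell number in these rises was not tested.

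Cxcr2, the neutrophil receptor for Cxcl1, Cxcl2, Cxcl3 and Cxcl5, was not called. It was at 2.11, 1.73 and 2.78 CPM on day 0 and at 2.26, 0.895 and 0.674 CPM on day 21, the groups overlapped, and the log2 fold change of -0.80 (95% interval -1.87 to 0.28, adjusted p = 0.206) did not pass the test. Without day-21 mouse 1 it was called lower. Cxcr1 had 0, 2 and 7 counts on day 0 against 0, 1 and 0 on day 21 and was not tested. Of 6 neutrophil markers, S100a8 and S100a9 were called lower, by 1.97 and 1.99 on the log2 scale, and Csf3r, which monocytes carry as well, was called higher by 1.19. Ly6g and Retnlg were too low to test, Ly6g with a sum of 4 counts on day 0 against 5 on day 21 and Retnlg with 38 and 15. Mpo had no count in any mouse. In sum these markers were at 13.2 to 24.3 CPM on day 0 and 10.2 to 10.96 CPM on day 21.

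Cxcr4, the Cxcl12 receptor of leukocytes and progenitor cells, was at 8.12, 5.28 and 2.89 CPM on day 0 and at 6.65, 11.6 and 11.7 CPM on day 21. Day-0 mouse 1 was above day-21 mouse 1, and the log2 fold change of 0.88 (SE 0.35, adjusted p = 0.0623) did not pass the test, though it did in 7 of 15 alternative settings such as DESeq2 (0.85) and limma-voom (0.96). Xcr1, a receptor of cross-presenting dendritic cells, had 2, 21 and 10 counts on day 0 against 25, 49 and 32 on day 21 (log2 fold change 1.13, SE 0.55, adjusted p = 0.121). It was called with library size alone and without day-0 mouse 2. Of 5 dendritic cell markers only Itgax, which macrophages also carry, was called higher. Their sum was 16.3 to 20.3 CPM on day 0 and 34.7 to 46.2 CPM on day 21.

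The other 8 receptors apart from the atypical ones were too low to test. Ccr4 and Ccr8, receptors of regulatory and type 2 T cells, had 1 count each on day 0 against 20 and 15 counts on day 21, ratios of 13.5 (counting interval 2.15 to 558) and 10.1 (1.55 to 425). Cxcr5, which takes B cells to follicles, had no count on day 0 and 12, 7 and 1 on day 21, and was at least 4.49-fold higher in sum. Ccr6, the Ccl20 receptor, had 4 counts on day 0 against 12 on day 21, Ccr9 had 6 and 29, and Ccr10 had 12 and 12. Ccr3, an eosinophil receptor, had 1 count in a single day-21 mouse, and Ccr1l1 had none. The 4 B cell markers summed to 0.928 to 2.97 CPM on day 0 and 2.21 to 4.06 CPM on day 21, with 0 of 1 tested called, and of the 4 NK cell markers only Gzmb was called higher, with sums of 1.40 to 2.31 and 2.92 to 6.43 CPM.

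The atypical receptors included none that was called higher. Ackr4, which scavenges Ccl19, Ccl21 and Ccl25, was at 106, 115 and 114 CPM on day 0 and at 55.5, 35.7 and 42.9 CPM on day 21. It fell by 1.32 on the log2 scale (SE 0.15, adjusted p = 7.31e-05), and the groups lay far apart. Of its exon bases, 8.9% also lie in exons of Acad11 on the opposite strand, which fell by 1.24 (SE 0.15), and reads of this overlap cannot be told apart. Ackr3, which scavenges Cxcl12, was at 57.2, 73.4 and 60.5 CPM on day 0 and at 77.1, 75.1 and 79.6 CPM on day 21. The groups did not overlap, but the log2 fold change of 0.28 (95% interval 0.01 to 0.54, adjusted p = 0.0797) was not called. Ackr2, which degrades inflammatory CC ligands, had 12, 10 and 9 counts on day 0 against 12, 9 and 19 on day 21. Its interval ran from -1.21 to 0.80 on the log2 scale (adjusted p = 0.739), too wide to tell a change of either sign from none. Ackr1, carried by erythrocytes and venules, had 0, 0 and 0 counts on day 0 against 0, 5 and 1 on day 21 and was not tested.

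Set side by side, 11 of 31 textbook pairs of a ligand and a receptor, all among the genes reported here by name, had both partners called higher. These were Ccl2, Ccl7 and Ccl12 with Ccr2, Ccl3, Ccl5, Ccl6 and Ccl9 with Ccr1, Cxcl9 and Cxcl10 with Cxcr3, Cxcl16 with Cxcr6, and Cx3cl1 with Cx3cr1. In the pair of Cx3cl1 and Cx3cr1 the ligand rose by 0.91 and the receptor by 3.58 on the log2 scale. In the pairs of Cxcl1, Cxcl2 and Cxcl5 with Cxcr2 the ligands were called higher and the receptor was not called. Cxcl12 was called lower while neither of its receptors, Cxcr4 and Ackr3, was called. For Ccl17 and Ccl22 with Ccr4, Ccl20 with Ccr6 and Ccl8 with Ccr8, the ligand was called higher and the receptor was too low to test. A pair with an untested partner could not count among the 11. As single genes, 73.7% of the members tested and 19.6% of all genes tested were called higher. These are not shares of pairs, so 11 of 31 cannot be set directly against them. Pairs share members and mice, so no test was run over them.

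The make-up of the chemokine pool also shifted. Levels of different genes were compared per kb of exon, as the share of the summed CPM per kb of all ligands or of all receptors. Exon bases that Cxcl16, Cxcl10 and Ackr4 share with opposite-strand genes were included, so the shares of these genes are less certain. On day 0, Cx3cl1 held 24.2% ± 3.26 (SD, n = 3) of the ligand pool, Cxcl16 17.7% ± 2.55, Cxcl14 17.1% ± 4.47 and Cxcl12 16.5% ± 2.12. Cx3cl1 held the largest share in each day-0 mouse (25.8%, 26.4% and 20.5%), while the order of Cxcl16, Cxcl14 and Cxcl12 differed between mice. This order was not tested. Ccl28 came next with 8.3% ± 8.74, a mean set by day-0 mouse 3. On day 21, Cxcl16 led with 21.0% ± 0.734, followed by Cx3cl1 with 16% ± 2.13, Cxcl14 with 11.4% ± 1.81, Cxcl10 with 6.0% ± 2.7, Cxcl17 with 5.52% ± 1.78 and Cxcl1 with 4.94% ± 0.664. Cxcl10, Cxcl17 and Cxcl1 overlapped in their spread. Cxcl12 went from rank 4 to rank 11 of the 37 ligands, at 2.76% ± 0.889.

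In the receptor pool, Ackr4 with 42.8% ± 2.14 and Ackr3 with 39.2% ± 2.42 made up most of the day-0 level, followed by Cxcr4 with 6.25% ± 3.25. On day 21, Ackr3 held 33.8% ± 1.57, Cx3cr1 17.6% ± 1.01, Ackr4 12.2% ± 2.53, Cxcr4 8.11% ± 2.47 and Ccr2 7.56% ± 0.376. Cx3cr1 moved from rank 4 to rank 2 of 23. In CPM, all ligands together went from 418 ± 97.0 to 736 ± 23.5 (SD, n = 3) and all receptors other than the atypical ones from 25.4 ± 1.75 to 153 ± 8.58, a 1.76-fold and a 6.04-fold rise in sum. The atypical receptors went from 176 ± 12.3 to 123 ± 10.9 CPM.

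**Figure D3:**
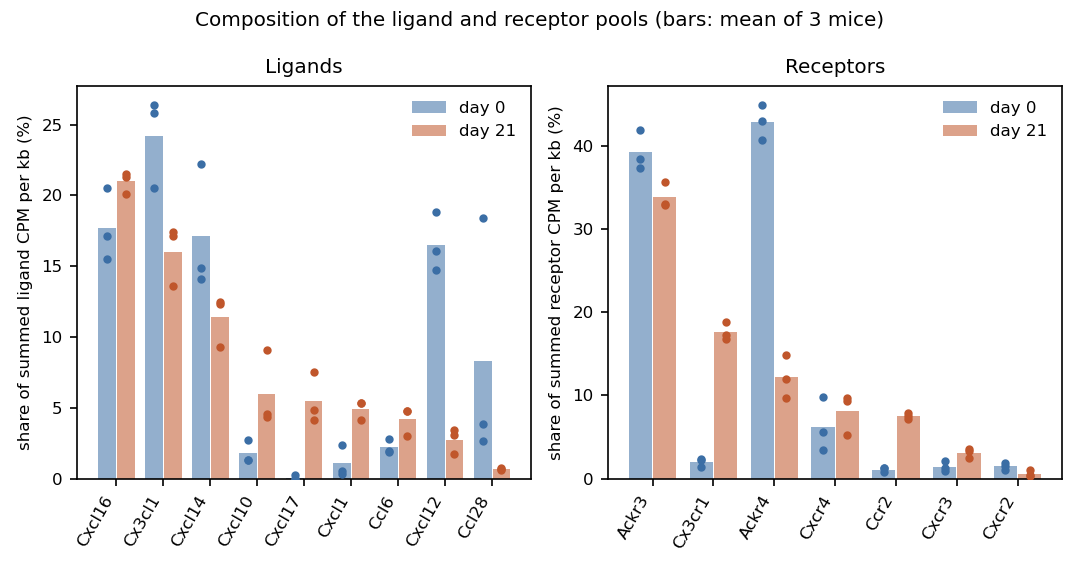
Share of each ligand in the summed CPM per kb of all ligands (left, vertical axis in %) and of each receptor in that of all receptors (right), for genes among the 6 highest on either day, with bars for the mean of 3 mice and points for single mice. Cxcl12 and Ackr4 lost share on day 21, while Cxcl10, Cxcl17 and Cx3cr1 gained.

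Many members lie in clusters of neighbouring genes, set here as 3 or more members, each less than 1000000 bases from the next (GRCm38). Neighbouring pairs, such as Cxcl9 and Cxcl10, are therefore not covered. The calls per cluster are read beside 73.7% of the members tested and 19.6% of all genes tested called higher, and were not tested. The cluster of Ccl2, Ccl7, Ccl11, Ccl12, Ccl8 and Ccl1 at chr11:82035571-82305690 had 4 members tested, all 4 called higher, while Ccl11 and Ccl1 between and beside them were too low to test. Further along, Ccl5, Ccl9, Ccl6, Ccl3 and Ccl4 at chr11:83525778-83664683 were all 5 called higher. In the cluster of Cxcl5, Cxcl3, Cxcl15, Cxcl1 and Cxcl2 at chr5:90759360-90905938, the 3 tested members were called higher, while Cxcl15, a lung chemokine, had 2 counts in all. Ccl22, Cx3cl1 and Ccl17 lie within 66 kb at chr8:94745590-94812036 and all 3 were higher, although Cx3cl1 differed from both neighbours by its high level on day 0. Among the receptors described at chr9:123678439-124113557, Ccr1, Ccr2 and Cxcr6 were called higher, Xcr1 was not called, and Ccr9, Ccr3 and Ccr1l1 were untested. In the cluster at chr4:41769467-42773993 only Ccl27a was tested, and it was not called. Neighbours were at very different levels in the same mice, as with Ccr2 at 112 and Ccr3 at 0 counts on day 0 against 1643 and 1 on day 21.

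**Figure D4:**
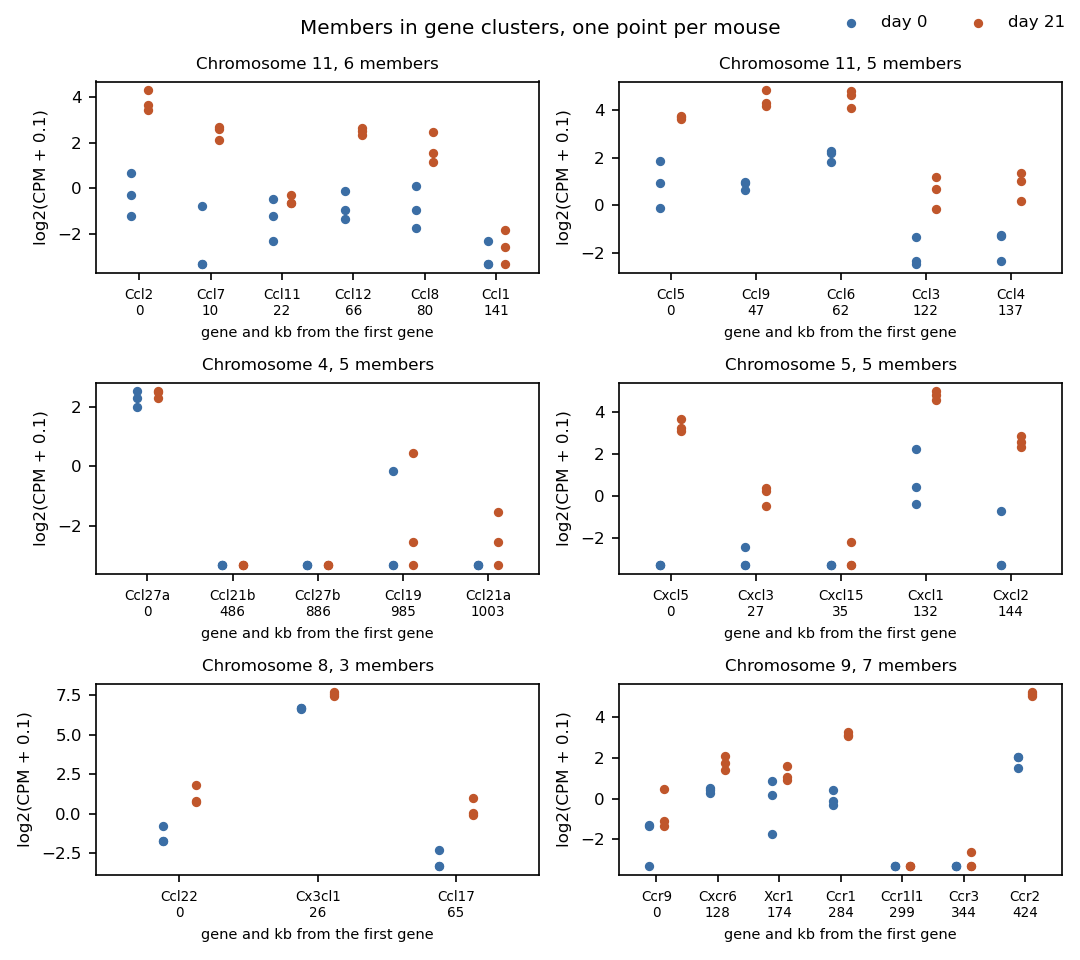
Level of the members in 6 gene clusters in each mouse, as log2(CPM + 0.1) on the vertical axis, with genes in order along the chromosome and the distance from the first gene in kb below each name. In the chromosome 11 and chromosome 5 clusters the day-21 points lie above the day-0 points in every tested gene. In the chromosome 9 cluster, Ccr3 and Ccr1l1 stay at the bottom of the axis, between Ccr1 and Ccr2.

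Genes that act on chemokines outside the receptors were looked at through a list of 12 chemerin, platelet chemokine, protease and Mif system genes, all of which were tested, with 5 called higher and 1 lower. These are 41.7% higher, beside 19.6% of all genes tested, and 1 of 12 lower, beside 15.5%. The 3 highest rises were Mmp12, a macrophage protease that trims chemokines (log2 fold change 3.16, SE 0.47, adjusted p = 0.000377), Cd74, the Mif receptor and invariant chain (2.45, SE 0.16, adjusted p = 2.41e-06), and Pf4, a platelet chemokine (1.72, SE 0.35, adjusted p = 0.00265). Cmklr1, the chemerin receptor, rose by 1.27, and Adam10, which sheds Cx3cl1 and Cxcl16, by 0.61. Mif fell by 0.61 (SE 0.12, adjusted p = 0.00255), a call lost in several settings. The count of 5 higher was 4 with RLE scaling and with DESeq2, and the 0.61 of Adam10 is close to the fold threshold of 1.5. The 6 others, among them Adam17 at 0.42 and Dpp4 at -0.30, were not called. The median log2 fold change of the list was 0.36, beside 0.03 for all genes tested.

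Of 32 genes that carry the signal from chemokine receptors, 31 were tested, 18 were called higher and 0 lower, the latter beside 15.5% of all genes (median log2 fold change 1.02). This share of 58.1% higher is read beside 19.6% of all genes tested. Among the highest rises were Rgs1 and Rgs16, regulators that end G protein signals. Rgs1 had 2 counts on day 0 against 121 on day 21, a ratio of 40.7 (counting interval 11.04 to 340.2), and Rgs16 rose by 4.09 on the log2 scale (SE 0.44, adjusted p = 4.34e-05). Genes known from blood cells, such as Rac2, Vav1, Was, Dock2 and Fgr, were among those called, and so were the broadly expressed Gnai2 (log2 fold change 0.86) and Arrb2 (1.71). The broadly expressed Rac1, Rhoa and Cdc42, at 0.05, 0.005 and 0.21, were not called. The part of leukocyte number in these rises was not tested.

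A list of 21 genes covered the signals that induce chemokines, together with the NF-kB inhibitors Nfkbia and Tnfaip3. Of these, 19 were tested and 15 were called higher (78.9%, beside 19.6% of all genes tested). None was called lower (beside 15.5%), and the median log2 fold change was 1.33. Tnf had no count on day 0 and 27, 29 and 18 counts on day 21, at least a 16.6-fold rise (adjusted p = 0.000547). Irf7, an interferon-induced regulator, rose by 4.21 (SE 0.19, adjusted p = 5.31e-07) and Ltb, a lymphotoxin subunit, by 3.29 (SE 0.48, adjusted p = 0.000333). The NF-kB subunits Nfkb1, Nfkb2, Rela and Relb rose by 0.91, 1.33, 0.64 and 1.83, while Rel at 0.66 and the inhibitor Nfkbia at 0.40 were not called. Tnfaip3, another NF-kB inhibitor, was called higher by 1.65 (SE 0.32, adjusted p = 0.00198). Stat2, which carries interferon signals, rose by 1.84. Ifng, which T and NK cells make and which induces Cxcl9 and Cxcl10, had 0 counts on day 0 against 2, 1 and 3 on day 21. It was too low to test. The lists were described by these counts and medians, with no test of a list as a whole.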

How the data were processed

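Kidney mRNA of 3 day-0 and 3 day-21 mice was sequenced by the authors as paired-end reads, and the deposited file holds raw counts per gene and mouse, not normalized. TopHat and mm10 are named in the submitters' processing notes, while the counting program and its strand setting are not given in the sources used here. All 55450 identifiers matched GENCODE M21 on GRCm38. Samples were grouped by their own labels, and the libraries held 10963849 to 14333311 counts. In R 4.3.3, genes were filtered with filterByExpr of edgeR 4.0.16 (minimum count 10, minimum total 15), scaled by TMM and compared with the quasi-likelihood test, without a block, with Benjamini-Hochberg adjustment over 16592 genes, and called where the adjusted p was under 0.05 with a fold over 1.5. The script was tested on simulated data. With 3 mice a group the smallest two-sided p of an exact permutation test is 0.1, so none is given.

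Where a group summed to 0 counts, folds were computed against a floor of 3 counts over the group. Where it summed to 1 to 3 counts, a ratio with an exact 95% counting interval is given. Counts of mice within a group differed beyond sampling noise (chi-square per gene 7.21 to 24.6), so each mouse was counted as its own sample. Same-numbered mice are different animals, and their deviations correlated at -0.019, 0.165 and 0.09, so the numbers were not taken to pair them. Values were given per mouse for the 24 called members with the highest mean CPM, every member called lower and a fixed set of 12 (Ccl2, Ccr2, Cxcl10, Cxcr3, Cx3cl1, Cx3cr1, Cxcl12, Cxcr4 and Ackr1 to Ackr4), and for the other lists the 3 highest rises and 3 largest falls among called genes. Genes named beyond this were picked with their values in view. A few genes are counted but not reported here by name. The members and lists were chosen with earlier results of these data known. Promoter sequences are from RefSeq (GRCm38.p6). Alternatives used limma 3.58.1, DESeq2 1.42.0, other scalings, filters and thresholds, a replicate block, and leaving out each mouse. Figures were drawn with matplotlib 3.10.9.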

Additional observations from a re-analysis of the deposited data

How the results depend on the processing

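Among the members, 28 were called higher in the reported test, and 16 of 23 tested with a filter at a mean of 50 counts, where fewer members could be tested. Their median log2 fold change of 2.61 was 2.69 with upper quartile scaling, 3.01 with library size alone, 2.44 with no filter on low counts, 2.47 with the filter at 50 counts and 2.31 to 3.01 when single mice were left out. With library size alone the median of all genes tested moved from 0.03 to 0.42, and 36.1% were called higher and 8.06% lower. That median was 0.12 with upper quartile scaling, 0.09 with no filter, 0.02 with the filter at 50 counts, 0.00 with RLE scaling and with DESeq2, 0.04 with limma-voom, and 0.03 when single mice were left out. Under stricter thresholds (adjusted p under 0.01, fold over 2), 11.6% were called higher and 7.56% lower. With the replicate block the members' median was 2.7 and that of all genes 0.04, and no call of a named member was lost to the pairing. The fall of Mif, the 1 handling gene called lower, gave 0 genes with upper quartile scaling, library size alone, the filter at 50 counts and the stricter thresholds, and 0 to 2 when single mice were left out. Ackr2 changed sign with library size alone (0.18) and without day-21 mouse 2, and ran from -0.51 to 0.04 when single mice were left out. Of the members called, Cxcl14, Cx3cl1, Cxcl9 and Ccl28 lost their call at the stricter thresholds, Cxcl9 also without day-21 mouse 2, and Ccl28 also with limma-voom (-1.53) and without any single day-21 mouse. Ackr3 was called with library size alone (0.67), Xcr1 with it and without day-0 mouse 2, Cxcr2 as lower without day-21 mouse 1, and Cxcr4 in 7 of 15 settings, up to 1.27. Leaving out day-0 mouse 1 moved Ccl2 to 4.76 and Ccl3 to 3.87, leaving out day-0 mouse 2 moved Ccl5 to 3.26, Ccl7 to 9.21, Ccl8 to 3.48 and Ccl22 to 3.4, and each stayed called. Without day-0 mouse 1, Cxcl1 moved to 4.89, and Ccl17 (7.07), Cxcl2 (9.37) and Cxcl17 (10.47) had no day-0 count left, so that depth limits these values. Without day-0 mouse 2, Cxcl2 was at 4.52 and Cxcl17 at 6.86. The cause was not tested for any of these.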
